A study of Mus musculus with 12 samples.

Results

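The genes described here are 67 of the 56953 in the count tables. They were chosen by their levels in mouse spinal cord: close to control at 4 weeks after tamoxifen in libraries labelled Ddx20 cKO, and at 0.3 of control or less at 4.5 weeks. Levels are given as CPM, the count of a gene scaled by the sum of its library, and each mean is over 3 libraries. A gene was taken when the controls averaged at least 5 CPM at 4.5 weeks, when each of the 3 cKO libraries lay below each of the 3 controls at that time, when the cKO to control ratio of the means was at most 0.3, and when the same ratio at 4 weeks lay between 0.8 and 1.25. X- and Y-linked genes were left out, and 0 of them met the other conditions. Of 11960 genes at 5 CPM or more in the 4.5-week controls, 204 autosomal genes fell that far. The 4-week ratio was inside the window for these 67, below it for 134 and above it for 3. Both contrasts between cKO and control chose the members, so their levels and ratios are a description and carry no test.

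The cKO mice carried loxP sites in both Ddx20 alleles (Ddx20 flox/flox) and the Plp-CreER transgene. Cords of 3 cKO and 3 control mice were taken at 4 weeks after tamoxifen, and of 3 and 3 at 4.5 weeks. Which Ddx20 alleles and whether Cre were carried by the control mice, and the age of the mice, are not given in the sources used here. CreER is a recombinase that becomes active when tamoxifen is given, and the Plp promoter directs it mainly to oligodendrocytes and other myelinating glia, so neurons are not the cells it mainly addresses. RNA came from whole spinal cord, in which fewer cells of a type and less RNA per cell cannot be told apart.

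Spinal cord neurons send signals along axons packed with neurofilaments, fire through voltage-gated sodium and potassium channels, and release transmitter from synaptic vesicles when calcium enters the terminal. Motor neurons make acetylcholine and drive muscle, and local inhibitory neurons release glycine and GABA. The axons are wrapped by oligodendrocytes, and neurons depend on this wrapping for fast conduction and metabolic supply. By known role, 4 of the 67 genes encode neurofilament proteins, 8 ion channels or a pump, 6 proteins of vesicle release and recycling, 4 act in transmitter synthesis or transport, and 8 are receptors or proteins of the synaptic membrane. Another 5 encode transcription factors, 3 calcium-binding proteins and 6 extracellular or secreted proteins. The remaining genes are 3 haemoglobin genes, 2 genes for carrier proteins of the border tissues, and 18 of other kinds.

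Library sums ran from 33104552 to 47677252 counts. Transcript of Ddx20, the targeted gene and a helicase of the complex that assembles splicing particles, was no lower where the label is cKO. It held 10.9, 9.61 and 10.8 CPM in the 4-week controls and 10.6, 11.7 and 10.4 CPM in the cKO libraries of that time, and 8.95, 10.2 and 9.1 CPM against 12.4, 11.3 and 13.6 CPM at 4.5 weeks, where it was higher (log2 fold change 0.33, edgeR adjusted p 0.0134). The targeted transcript was thus higher, not lower, under the cKO label at 4.5 weeks and did not separate the groups at 4 weeks. Here "cKO" means no more than the label of a library. Counts per gene of whole cord do not show a deleted exon, or a loss limited to the cells that the Plp promoter addresses. By the transcript Xist, the 4-week controls and cKO library 3 of that time were male, and cKO libraries 1 and 2 of 4 weeks and all 6 libraries of 4.5 weeks were female. Control library 1 of 4.5 weeks held more transcript of tissues around the cord than the other controls of its time: the 10 sensory ganglion markers summed to 122, 18.5 and 19.3 CPM, the 11 Schwann cell markers to 507, 156 and 144 CPM and the 28 meningeal markers to 863, 248 and 163 CPM in controls 1, 2 and 3. The 14 skeletal muscle markers summed to 8.22, 314 and 27.4 CPM in the same order.

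At 4.5 weeks the 67 genes stood at a median of 0.252 of control (0.0767 to 0.299). Together they took 20795 to 22401 CPM in the controls and 5080.1 to 5586 CPM in the cKO libraries. In 66 of the 67, the 3 cKO libraries of 4.5 weeks were also below all 9 other libraries of the study, Ptgds being the exception. In 66, every control of that time held at least 2 times the highest cKO level, Rbp4 being the exception at 1.71 times. The rule asked for 3 libraries below 3, but also for a ratio of means of at most 0.3 at 4.5 weeks. It further asked for a ratio close to control at the earlier time. These limits favour both counts of 66, which are therefore a description only. For scale, 32.6% of the 19278 genes tested by edgeR were called lower at 4.5 weeks, and 32% had all 3 cKO libraries below all 3 controls (40.3% all 3 above). The median ratio over those genes was 1.07.

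The label of a fall absent at 4 weeks held only in the sense of the window. At 4 weeks the ratio was below 1 in 61 of the 67 genes, with a median of 0.876 (0.803 to 1.14), against a median of 1.07 over all tested genes, of which 40.2% were below 1. It was below 0.9 in 41 members and below 0.85 in 26. All 3 cKO libraries lay below all 3 controls in 25 members and above them in 1, Sh3bgr. Among all tested genes, 16% lay wholly below and 30.8% wholly above. By edgeR's quasi-likelihood test with trimmed-mean scaling, 26 members were called lower at 4 weeks and 0 higher, where 17.2% of all tested genes were called lower. The window reads this same contrast, so nothing is drawn from that count. On the edgeR scale the members' median log2 fold change was -0.28 at 4 weeks and -2.06 at 4.5 weeks, beside 0.01 and 0.02 over all tested genes.

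Sex differed between the 4-week groups, and its part in the 4-week ratios was not tested. Set against the 3 male controls, the male cKO library alone gave a median ratio of 0.826, and 22 members then stood below 0.8. It was the lowest cKO library of 4 weeks in 42 of the 67 members, while control 3 was the highest control in 51. At 4.5 weeks, where all libraries were female, cKO library 1 was the lowest in 39 members, library 3 in 22 and library 2 in 6. These ranks were counted for members only. A tilt of a whole library thus cannot be told apart here from a trait of the members.

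**Figure D1:**
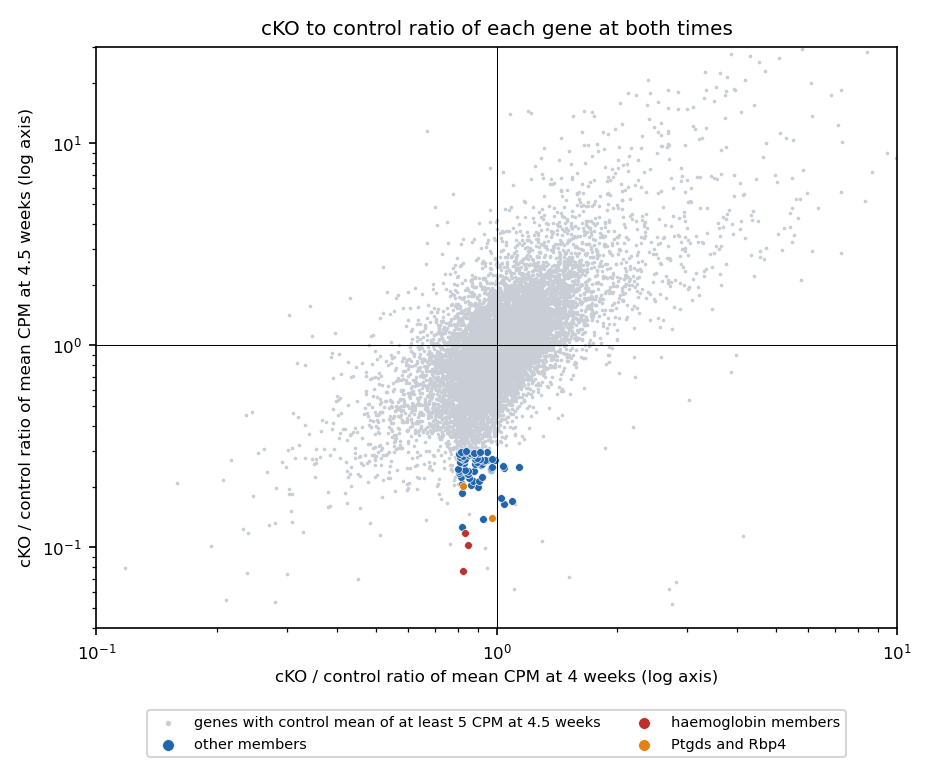
Each point is a gene with a control mean of at least 5 CPM at 4.5 weeks, placed by its cKO to control ratio of mean CPM at 4 weeks (x, log axis) and at 4.5 weeks (y, log axis), and 28 genes lie outside the axes. The 67 members sit in a narrow column between 0.803 and 1.14 on x and below 0.3 on y, with the 3 haemoglobin genes lowest.

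Levels can also be followed from one time to the other, although controls of 4 weeks were male and controls of 4.5 weeks female, so time and sex cannot be told apart between the control groups. In cKO libraries every member was lower at 4.5 than at 4 weeks, with a median ratio of 0.326 (0.0232 to 0.489). In controls 51 of the 67 were higher at 4.5 weeks, with a median ratio of 1.16, and 29 were more than 1.2 times as high. The medians over all tested genes were 0.957 in cKO and 0.975 in controls. The rule's limits at both times nearly fix the fall in cKO, and choosing low late ratios favours genes with high later controls. The counts of members lower in cKO and higher in controls are therefore a description only. Outside the haemoglobin and carrier genes, the other 62 members summed to 16198 to 18786 CPM in the 4-week controls, 14565 to 15716 CPM in the 4-week cKO, 20382 to 20942 CPM in the later controls and 4927 to 5425 CPM in the later cKO.

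The values ran on across the limits of the rule. Just inside the 4.5-week limit were Sh3gl2 at 0.299, Car7 at 0.298 and Syndig1 at 0.297, and just outside it were Tmem150c and Fgf12 at 0.302 and Ccdc184 at 0.303. At the lower edge of the 4-week window, Trhr stood at 0.803 and ENSMUSG00000116793.2, outside, just under 0.8. At the upper edge Sh3bgr stood at 1.14 and the nearest gene outside, the muscle gene Ttn, at 1.51.

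All 67 members are protein coding, as are 82.2% of the tested genes. They lie on 17 chromosomes, at most 9 on one, and the neurofilament genes Nefm and Nefl are the 1 pair of neighbours in the order of tested genes. Their gene spans had a median of 27.3 kb, against 19.95 kb for tested genes with an annotated span, and their longest transcripts 3.20 against 3.08 kb, from GENCODE M21 lengths.

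The bases before the transcription start were read for members matched by symbol in RefSeq promoter windows of build GRCm38.p6: 49 of the 67 matched, with 71 windows, since some genes have several starts. In the 250 bases before the start, 37 of the 71 windows (52.1%) held the GC box GGGCGG on either strand, against 52.8% of windows of tested genes and 32.7% of all windows. The CCAAT box, CCAAT on either strand, was in 23 (32.4%, against 34.8% and 33.8%), and the TATA box as TATAAA on either strand in 7 (9.86%, against 7.08% and 12.4%). The E-box CAGCTG, the same on both strands, was in 11 (15.5%, against 12.8% and 13.001%). The cAMP response element TGACGTCA, also the same on both strands, was in 2 (2.82%, against 2.32% and 1.55%). The partial site TTCAGCACC of the neuronal repressor REST was in 0 on either strand, against 0.345% and 0.301%. The median GC content was 62.0%, against 58.8% in windows of tested genes. The sequences printed here, 5′ to 3′ on the gene's own strand and ending at the base before the start, are those of the member with the lowest ratio outside the haemoglobin genes (Kcng4), a motor neuron transcription factor (Isl2), the acetylcholine-making enzyme (Chat) and the calcium sensor of release (Syt2, the first of its 2 windows). Capitals mark matches to the motifs named. A match is a description of letters and not a binding site.
Kcng4 (chr8:119635681-119635930, minus strand): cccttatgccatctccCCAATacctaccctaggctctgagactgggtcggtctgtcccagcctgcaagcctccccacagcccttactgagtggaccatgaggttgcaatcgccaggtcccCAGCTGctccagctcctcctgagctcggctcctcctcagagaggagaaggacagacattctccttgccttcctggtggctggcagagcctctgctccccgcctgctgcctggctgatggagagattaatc
Isl2 (chr9:55540899-55541148, plus strand): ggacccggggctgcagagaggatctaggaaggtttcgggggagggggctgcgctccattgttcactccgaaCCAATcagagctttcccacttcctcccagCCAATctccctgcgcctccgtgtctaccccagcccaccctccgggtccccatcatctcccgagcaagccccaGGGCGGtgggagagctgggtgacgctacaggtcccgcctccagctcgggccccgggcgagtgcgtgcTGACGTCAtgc
Chat (chr14:32465910-32466159, minus strand): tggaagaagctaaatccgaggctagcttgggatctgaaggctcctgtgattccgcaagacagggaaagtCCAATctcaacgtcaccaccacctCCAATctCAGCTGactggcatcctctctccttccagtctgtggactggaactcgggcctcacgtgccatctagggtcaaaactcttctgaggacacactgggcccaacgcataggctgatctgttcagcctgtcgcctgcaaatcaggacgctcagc
Syt2 (chr1:134646362-134646611, plus strand): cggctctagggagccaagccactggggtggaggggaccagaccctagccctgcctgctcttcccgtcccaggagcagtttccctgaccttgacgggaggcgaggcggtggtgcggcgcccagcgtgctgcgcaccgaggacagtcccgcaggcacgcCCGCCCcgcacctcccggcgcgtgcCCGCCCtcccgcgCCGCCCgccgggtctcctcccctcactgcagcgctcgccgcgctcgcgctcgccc

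Among the genes of the axonal cytoskeleton, all 3 neurofilament triplet genes were members: Nefh, Nefm and Nefl, the heavy, medium and light subunits that fill large axons, with Ina, the alpha-internexin that assembles with them. Nefh held 1413, 1562 and 1756 CPM in the 4-week controls and 1471, 1391 and 1262 CPM in the cKO libraries of that time. At 4.5 weeks it held 2129.8, 1943 and 1867 CPM in controls and 471, 436 and 354 CPM in cKO, a ratio of 0.212 and a log2 fold change of -2.31 ± 0.12 (SE). The 4-week groups overlapped, and the later cKO libraries were all far below every other library. Nefm went from 2299, 2643 and 2188 CPM in the 4-week cKO to 757, 738 and 589 CPM, beside 3520.1, 3197 and 3082 CPM in the later controls. Nefl (0.271) and Ina (0.282) had the higher ratios of the 4. For Nefh, Nefm and Nefl, cKO library 3 was the lowest of the later cKO libraries and control 1 the highest control. Ina was the 1 member of the role with 4-week groups that did not overlap, at 297, 295 and 336 CPM in controls and 256, 253 and 255 CPM in cKO. Prph, peripherin, a related filament protein of motor and sensory neurons outside the members, held 163, 104 and 87.7 CPM in the later controls and 80.7, 75.5 and 58.4 CPM in cKO, a log2 fold change of -0.80 with an adjusted p of 0.00282 from edgeR that rose to 0.0891 without controls 1 and 2 of 4.5 weeks.

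The channel genes gave the lowest ratio outside haemoglobin. Kcng4 encodes the potassium channel subunit Kv6.4, which forms no channel alone and modifies Kv2 channels. It held 102, 114 and 130.2 CPM in controls and 101, 96.2 and 85.9 CPM in cKO at 4 weeks, against 148, 147 and 148 CPM and 20.2, 21.01 and 14.7 CPM at 4.5 weeks, ratios of 0.818 and 0.126. Kcnj14, the inward rectifier Kir2.4 known from motor nuclei, held 53.1, 48.6 and 44.4 CPM in the later controls and 10.6, 6.02 and 3.47 CPM in cKO, so that cKO library 1 kept the most (0.138 of control in the mean). At both times the groups of Kcng4 were apart, while the 4-week groups of Kcnj14 overlapped. Kcng1 (Kv6.1, ratio 0.185) and Kcns3 (Kv9.3, 0.247) are likewise silent subunits that act on Kv2 channels.

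Scn4b, the beta-4 subunit that supports resurgent sodium current, held 542, 535 and 568 CPM in the later controls against 99.6, 132 and 152 CPM in the later cKO. Kcnab1, a beta subunit of Kv1 channels, stood at 0.27 of control. Atp1b1, the beta subunit of the sodium pump that restores ion gradients, held 1716, 1820.2 and 1848 CPM against 436, 552 and 583 CPM. None of these 3 genes had a later library labelled cKO within the range of any other library.

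Another 6 members belong to transmitter release and vesicle recycling. Snap25, a SNARE protein of the fusion machinery, held 2016, 2147 and 2109 CPM in controls and 1913, 1875 and 1832 CPM in cKO at 4 weeks, and 2161, 2213 and 2229 CPM against 464, 611 and 664 CPM at 4.5 weeks. Syt2, the synaptotagmin that senses calcium at fast terminals, held 797, 823 and 878 CPM against 173, 209 and 213 CPM, with 4-week levels of 549, 533 and 682 CPM and 497, 554 and 502 CPM. The control level of Snap25 changed little between the times (ratio 1.05), and that of Syt2 was 1.42 times as high. The vesicle glycoproteins Sv2b and Sv2c stood at 0.231 and 0.238 of control. Lin7b, a scaffold protein of synapses, stood at 0.244, and its later controls were lower than the earlier ones (0.827). Sh3gl2, the endophilin A1 of vesicle retrieval, stood at 0.299. In 5 of the 6, cKO library 1 was the lowest of the later cKO libraries.

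**Figure D2:**
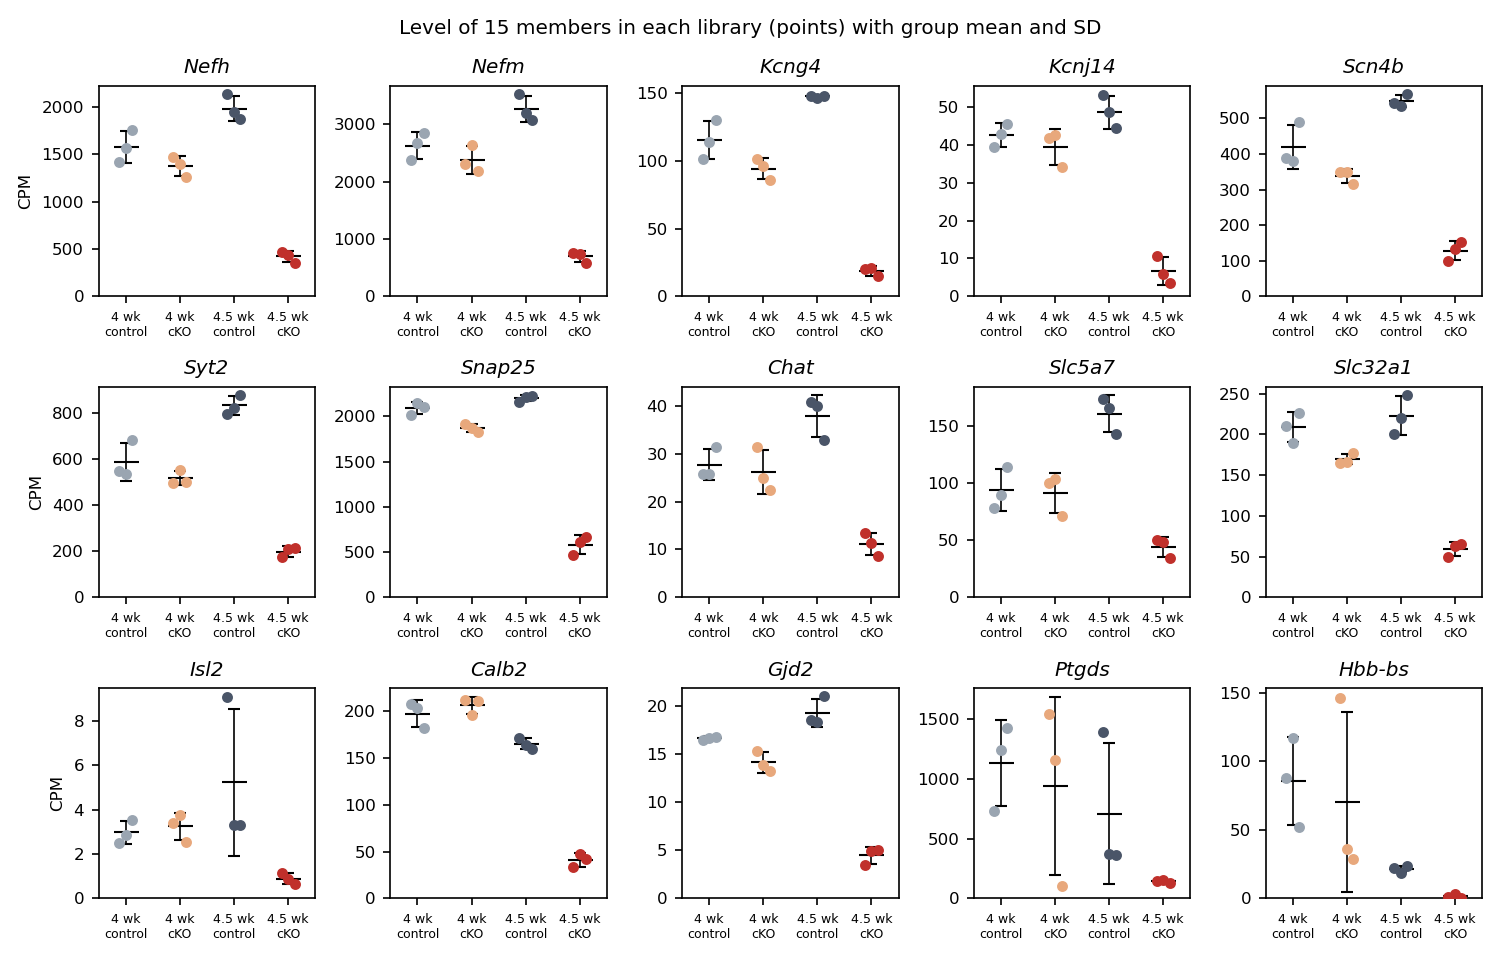
Level in CPM (y, from 0) of 15 members in each of the 12 libraries, by group, with points for libraries and bars for the group mean and SD. In all but Ptgds the later cKO libraries sit below every other library, and Ptgds and Hbb-bs have wide spreads in the 4-week cKO group.

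For transmitter handling, the members include both genes that keep acetylcholine supplied. Chat, which makes acetylcholine, held 25.7, 25.9 and 31.4 CPM in controls and 31.4, 24.9 and 22.4 CPM in cKO at 4 weeks, and 40.9, 39.9 and 32.8 CPM against 13.4, 11.4 and 8.71 CPM at 4.5 weeks. Slc5a7, the choline transporter of cholinergic terminals, held 78.2, 89.2 and 114 CPM and 99.7, 103 and 71.5 CPM at 4 weeks, then 174, 166 and 143 CPM and 49.9, 48.3 and 34.4 CPM. Both genes had overlapping 4-week groups, and both were lowest in cKO library 3 at each time. Chat stood at 0.295 of control, and at 0.307, outside the limit, without control 1. Slc32a1 loads GABA and glycine into vesicles and held 200.4, 221 and 248 CPM against 49.2, 62.95 and 65.2 CPM, with 4-week groups of 211, 189.6 and 226 CPM and 165, 167 and 177 CPM that were already apart. Rimkla, which makes the peptide transmitter N-acetylaspartylglutamate, held 132, 125 and 130.4 CPM against 35.7, 35.4 and 34.9 CPM, the cKO libraries lying within 1 CPM of each other.

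Receptors and proteins of the synaptic membrane made up 8 members. Chrm2, the M2 muscarinic receptor, held 79.1, 83.3 and 80.4 CPM in the later controls and 17.1, 19.4 and 21.9 CPM in cKO, after 51.8, 48.9 and 63.5 CPM and 50.2, 45.9 and 41.1 CPM at 4 weeks. Gjd2, connexin 36 of electrical synapses between neurons, held 18.6, 18.3 and 20.97 CPM against 3.42, 4.93 and 5.01 CPM, and 16.4, 16.7 and 16.8 CPM against 15.3, 13.8 and 13.2 CPM earlier. The 4-week groups were apart for Gjd2 and overlapped for Chrm2. The peptide receptors Vipr2, for vasoactive intestinal peptide and PACAP, and Trhr, for thyrotropin-releasing hormone, stood at 0.202 and 0.245 of control. Cacng2, stargazin, which carries AMPA receptors to synapses, stood at 0.275, Lgi2, a secreted synaptic protein, at 0.291 and Syndig1, a membrane protein that organises AMPA synapses, at 0.297. In controls, Cacng2 was 1.57 times as high at 4.5 as at 4 weeks and Syndig1 0.972 times.

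Of the 5 transcription factor genes 4 are described here, and 3 of these stood within 0.1 of control at 4 weeks. Isl2, a factor of motor neurons that sensory ganglia also express, held 9.07, 3.3 and 3.31 CPM in the later controls and 1.14, 0.892 and 0.63 CPM in cKO. Control 1 was thus the high value of Isl2, in the library with the most sensory ganglion transcript, and the part of that tissue was not tested. Without control 1 the ratio of Isl2 went from 0.17 to 0.268, but its control level was then below the minimum of 5 CPM, so that Isl2 is a member only through control 1. Npas1, a factor of subsets of inhibitory neurons, stood at 0.251, the homeobox gene Six4 at 0.242 and the orphan nuclear receptor gene Esrrb at 0.262. The 4-week ratios of these 4 factors ran from 0.83 (Esrrb) to 1.09 (Isl2).

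The 3 calcium-binding members had a median ratio of 0.994 at 4 weeks and 0.248 at 4.5 weeks. Calb2, calretinin, held 207, 204 and 182 CPM in controls and 212, 196 and 212 CPM in cKO at 4 weeks, and 172, 165 and 160.3 CPM against 33.3, 47.9 and 41.9 CPM at 4.5 weeks. Necab3, a neuronal calcium-binding protein, held 51.8, 52.4 and 54.7 CPM against 12.9, 15.5 and 14.8 CPM, and its 4-week ratio was 0.994. Tesc, tescalcin, stood at 0.921 and 0.222 at the 2 times. Unlike most members, all 3 had lower controls at 4.5 than at 4 weeks, with ratios from 0.826 (Tesc) to 0.968 (Necab3).

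Extracellular or secreted proteins are encoded by 6 members. Hapln4, a link protein of the perineuronal net around fast-firing neurons, held 205, 199 and 246 CPM and 192, 181 and 177 CPM at 4 weeks, and 234, 245 and 270.1 CPM against 54.1, 63.95 and 60.8 CPM at 4.5 weeks. Mmp9, a matrix metalloproteinase that fast motor neurons express, held 14.5, 14.4 and 13.5 CPM against 3.4, 2.73 and 3.21 CPM. Its 4-week groups overlapped, at 11.9, 15.3 and 11.9 CPM and 12.2, 12.3 and 8.98 CPM. Fgf9, a fibroblast growth factor, stood at 0.257 of control, Rspo2, an enhancer of Wnt signalling, at 0.252, Nell1, a secreted glycoprotein, at 0.256, and Prss12, the synaptic protease neurotrypsin, at 0.286. In 5 of the 6, Mmp9 excepted, cKO library 1 was the lowest of the later cKO libraries.

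The other 18 members had late ratios from 0.164 to 0.298. Ndrg4, a neuronal member of the NDRG family, held 1522, 1543 and 1618 CPM in the later controls and 392, 468 and 523 CPM in cKO. Dync1i1, the neuronal intermediate chain of dynein, which carries cargo back along axons, held 159.8, 159 and 159 CPM against 36.6, 43.1 and 51.7 CPM, and Lamp5, a lysosome-associated membrane protein of neurons, 227, 234 and 266 CPM against 54.7, 64.99 and 68.03 CPM. The groups were apart at both times for these 3 genes. Sptssb, a subunit of serine palmitoyltransferase, stood at 0.199, the epsin gene Epn3 at 0.206 and the neuronal carbonic anhydrase gene Car7 at 0.298. Sh3bgr was the 1 member wholly above control at 4 weeks, at 33.7, 39.1 and 34.99 CPM in controls and 42.6, 39.97 and 40.1 CPM in cKO, and then stood at 39.3, 36.6 and 35.8 CPM against 10.02, 10.7 and 7.22 CPM. Gm765, like Isl2 and Rbp4, passed the minimum only through control 1, at 12.6, 2.98 and 3.61 CPM in the later controls, and stood at 0.318 without it. The other members of this kind are Alox8, Cyp2s1, Fam131c, Krt222, Patj, Serpinb1a, Slc35f3, Smim17, Spsb4 and Steap2, with ratios from 0.266 (Serpinb1a) to 0.294 (Spsb4).

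**Figure D3:**
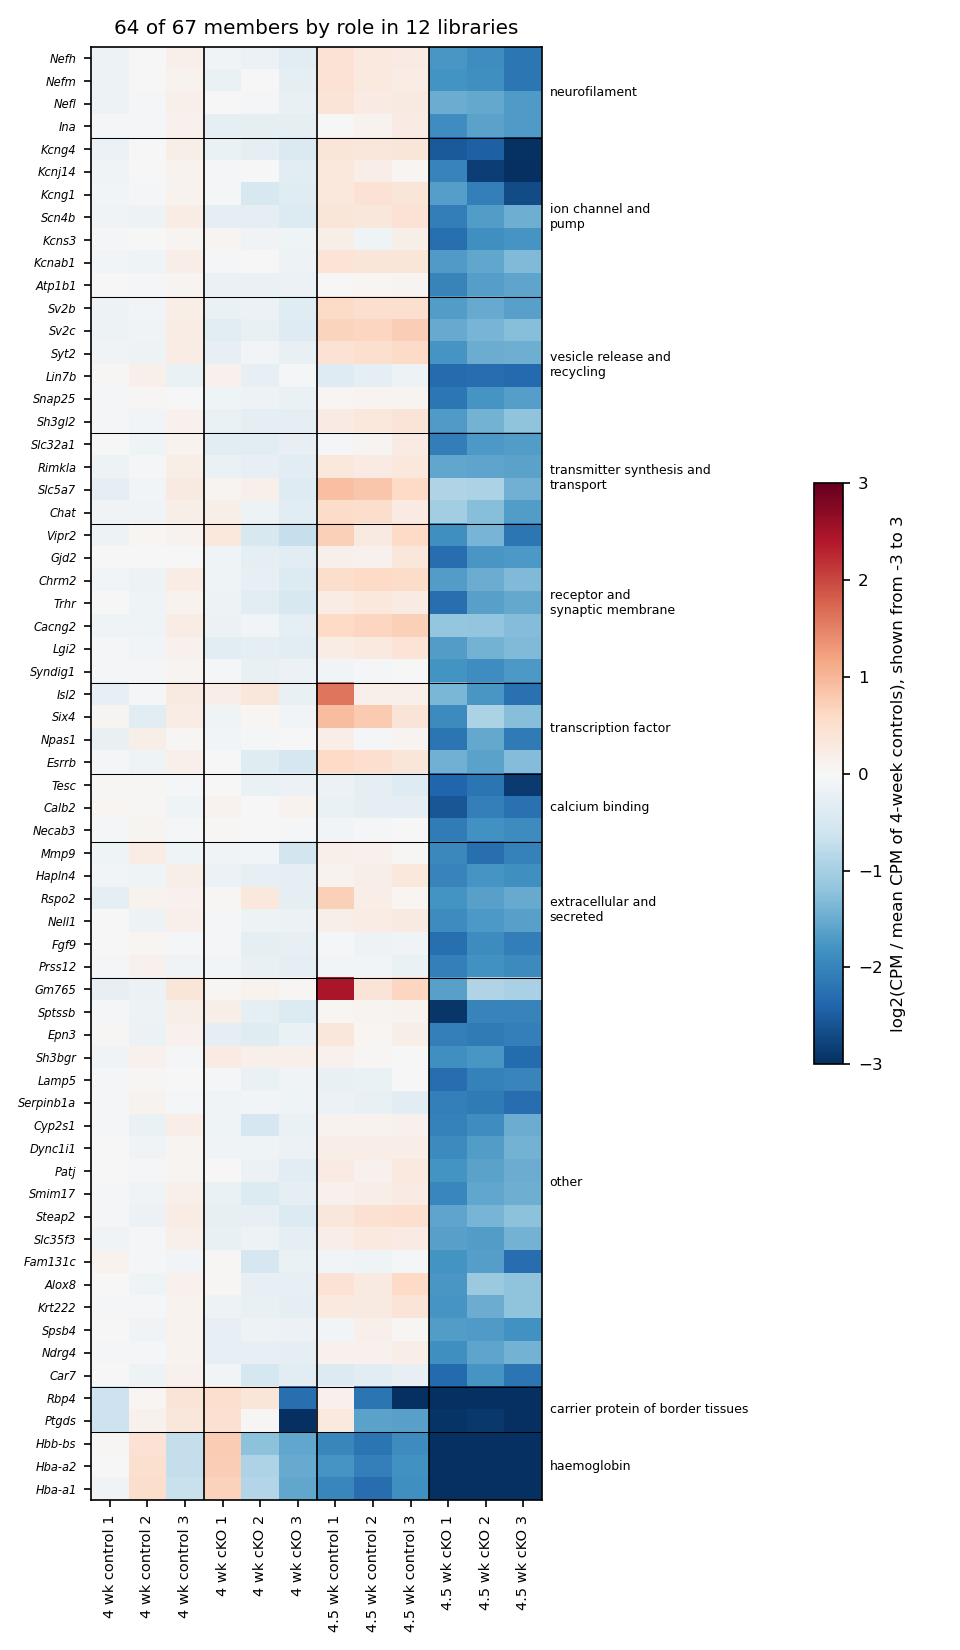
Rows are 64 of the 67 members by role and columns the 12 libraries. Colour is log2 of CPM over the mean CPM of the 4-week controls, shown from -3 to 3. The 3 right-hand columns, the later cKO libraries, are low in every row, and the haemoglobin rows are low in the later controls too.

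The 3 haemoglobin genes had the lowest ratios and were lower in the later controls too. Hbb-bs, an adult beta-globin gene, held 87.99, 117 and 52.3 CPM in controls and 146, 36.3 and 28.9 CPM in cKO at 4 weeks, then 21.9, 18.8 and 23.3 CPM and 0.897, 3.47 and 0.54 CPM. The 4-week ratio of 0.822 was thus a mean of 1 high library, cKO 1, and 2 below every control. In the male cKO library alone it was 0.338. The alpha-globin genes Hba-a1 (0.117 of control at 4.5 weeks) and Hba-a2 (0.103) are near-identical copies between which reads can be split, as are Hbb-bs and Hbb-bt, so their separate values are uncertain. They followed the same libraries. Later controls held 0.249 of the earlier control level for Hbb-bs. Globin transcript in tissue comes with immature red cells in its blood, and the part of blood in these values was not tested. The 2 other erythroid genes listed, Hbb-bt and Alas2, the first enzyme of haem synthesis in red cells, were called lower at 4.5 weeks (edgeR adjusted p 3.3e-04 and 5.8e-04). Hbb-bt held 4.1, 4.5 and 3.46 CPM in controls and 0.219, 0.429 and 0.0329 CPM in cKO. Alas2 held only 0.736, 0.9 and 0.503 CPM in controls and 0.0248, 0.0836 and 0 CPM in cKO, so its fold change rests on few counts.

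Ptgds and Rbp4 encode carrier proteins, prostaglandin D synthase and the retinol-binding protein. Ptgds is made by meningeal cells and oligodendrocytes. It held 732, 1244 and 1426 CPM in controls and 1548, 1159 and 106 CPM in cKO at 4 weeks, and 1392, 369.7 and 365 CPM against 148, 153 and 128 CPM at 4.5 weeks. Rbp4 held 11.1, 17.7 and 22.1 CPM and 23.95, 21.9 and 3.55 CPM, then 18.7, 3.7 and 1.99 CPM and 1.17, 1.09 and 1.15 CPM. In both genes control 1 stood apart from the other later controls and cKO library 3 from the other 4-week cKO libraries. The 28 meningeal fibroblast markers moved with them, at 786, 842 and 268 CPM in the 4-week cKO libraries 1, 2 and 3 and 863, 248 and 163 CPM in the later controls. They summed to 417, 436 and 314 CPM in the later cKO libraries, above controls 2 and 3. Without control 1 the ratios were 0.389 for Ptgds and 0.398 for Rbp4. Both then fail the limit of 0.3, and Rbp4 also the minimum of 5 CPM, and the part of meningeal tissue was not tested.

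Neuronal genes outside the members also fell at 4.5 weeks, most of them by less. The rule takes genes at 0.3 or less inside the 4-week window out of these lists, which favours a smaller fall in the rest. The lists were read with earlier results of these data known, and a gene counts here when it was tested and is no member. Of 14 listed neuron markers, 13 were called lower and 0 higher at 4.5 weeks (edgeR, background 32.6% lower and 33.3% higher), with a median log2 fold change of -1.22 beside 0.02 over all genes. The exception was Camk2a (-0.25, adjusted p 0.104). Rbfox3, the nuclear protein NeuN of most neurons, held 138, 147 and 152 CPM in controls and 57.2, 66.7 and 66.3 CPM in cKO, a ratio of 0.436 (log2 fold change -1.28 ± 0.07, edgeR adjusted p 5.2e-09). The growth-cone and cytoskeletal genes Stmn2 (0.695), Tubb3 (0.605) and Map2 (0.561) kept more of their control level. The RNA-binding protein gene Elavl4 (0.323) and Kcnc1 (0.324), the Kv3.1 channel, came close to the limit, and Slc6a5, the glycine transporter, was below it (0.202) but outside the window at 4 weeks (0.712). At 4 weeks 9 of the 14 neuron markers were called lower and 0 higher (background 17.2% and 20.1%). That count was 1 with a sex term, and 4 without control 3, cKO library 2 or cKO library 3 of 4 weeks.

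The summed level of all 20 neuron markers, 6 of them members, was 12109 to 13794 CPM in the 4-week controls, 11177 to 12014 CPM in the 4-week cKO, 14862 to 15459 CPM in the later controls and 4601 to 4912 CPM in the later cKO. No neuron marker was at 0 in any group. Over the same groups the 12 markers of activated microglia, all called higher at both times, summed to 3571 to 3629, 7829 to 8844, 2939 to 3255 and 48270.2 to 55166 CPM. The 20 Hox genes of position along the cord were lower too, at 691 to 740.4 CPM in the later controls and 376 to 447 CPM in cKO. The part of microglial RNA in the lower CPM of members was not tested.

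Of 10 motor neuron genes outside the members, 8 were called lower and 1 higher at 4.5 weeks (background 32.6% and 33.3%), with a median log2 fold change of -1.41. Chodl, a marker of fast motor neurons, fell most: 46.5, 41.8 and 38.3 CPM in controls and 7.57, 8.17 and 5.36 CPM in cKO, a ratio of 0.166 (log2 fold change -2.66 ± 0.16, adjusted p 1.5e-08). It missed the members by its 4-week ratio of 0.751. Slc18a3, which loads acetylcholine into vesicles and is encoded within the Chat locus, stood at 0.392, and Slc10a4, a vesicle protein of cholinergic neurons, at 0.362. Calca was not called (-0.19, adjusted p 0.605), and Uts2 was higher (1.38, adjusted p 0.00209), a call lost without controls 1 and 2 of 4.5 weeks (adjusted p 0.0846).

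In the families of the channel members, most but not all genes were lower at 4.5 weeks, and some of them already at 4 weeks. Of 82 potassium channel genes outside the members, 55 were called lower and 13 higher at 4.5 weeks, with a median log2 fold change of -0.88. The background for this and the following families was 32.6% lower and 33.3% higher. Kcnab2, a partner of Kv1 channels, stood at 0.338 of control and Kcnk9, a leak channel, at 0.351. Kcnk6, also a two-pore leak channel, went the other way, from 3.54 ± 0.356 CPM (SD) in controls to 53.1 ± 1.75 CPM in cKO. Of 10 sodium channel genes, 7 were called lower and 1 higher (2 higher without control 1 of 4.5 weeks). Scn8a and Scn1a, the main axonal and interneuron channels, stood at 0.308 and 0.266. Of 23 calcium channel genes, 17 were called lower and 2 higher (4 higher without control 2 of 4.5 weeks). Of 5 sodium pump genes, 4 were called lower and 0 higher (1 higher without control 1). At 4 weeks 29 potassium channel genes were already called lower and 8 higher. For sodium channels these were 4 and 1, and for calcium channels 9 and 1. The lower calls of the channels were fewer with a sex term. Of the sodium pump genes 3 were lower and 0 higher. The background at 4 weeks was 17.2% lower and 20.1% higher. The difference between times was called downward in 40 potassium channel and 1 sodium pump genes, and upward in 6 and 0.

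In the families of the receptor and vesicle members the calls at 4.5 weeks ran mostly downward, against the same background of 32.6% lower and 33.3% higher. Of 19 GABA-A and glycine receptor genes outside the members, 17 were called lower and 0 higher, with a median log2 fold change of -1.07, and Glrb, the glycine receptor beta subunit, stood at 0.312 of control. Of 19 ionotropic glutamate receptor genes, none a member, 16 were lower and 1 higher (median -0.86), and the 1 higher call was lost without control 1, cKO library 1 or cKO library 3 of 4.5 weeks. Of 15 acetylcholine receptor genes, 10 were lower and 1 higher (median -1.21), with 3 higher without control 1 of 4.5 weeks and 2 without cKO library 1 of 4 weeks. Of 16 synaptotagmin genes, 11 were lower and 2 higher (median -0.75), and of 6 vesicular transporter genes 5 were lower (median -1.29). Slc17a6, which loads glutamate, stood at 0.311, and Sv2a, the third of the SV2 family, at 0.396. In the perineuronal net group, 4 of 6 were lower and 2 higher: Hapln1 fell to 0.245 and aggrecan, Acan, to 0.462 of control, while Ncan and Hapln3 were higher, at 2.12 and 2.27 times control. Also lower was Hapln2, on the mature oligodendrocyte list, at 0.386 of control, but it already stood at 0.387 at 4 weeks. At 4 weeks 3 of the 6 were called lower and 1 higher. Their median log2 difference between times was 0.17, with 2 called downward and 1 upward. At 4 weeks 9 GABA-A and glycine and 12 ionotropic glutamate receptor genes were already called lower, and 0 higher in both (background 17.2% and 20.1%). Acetylcholine receptors had 3 lower and 1 higher, synaptotagmins 4 and 2, and vesicular transporters 2 and 0. All these lower calls were fewer with a sex term. The difference between times was called downward in 8 GABA-A and glycine and 10 ionotropic glutamate receptor genes, and upward in 0 and 1. These families were gathered by symbol after the members' values were seen.

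**Figure D4:**
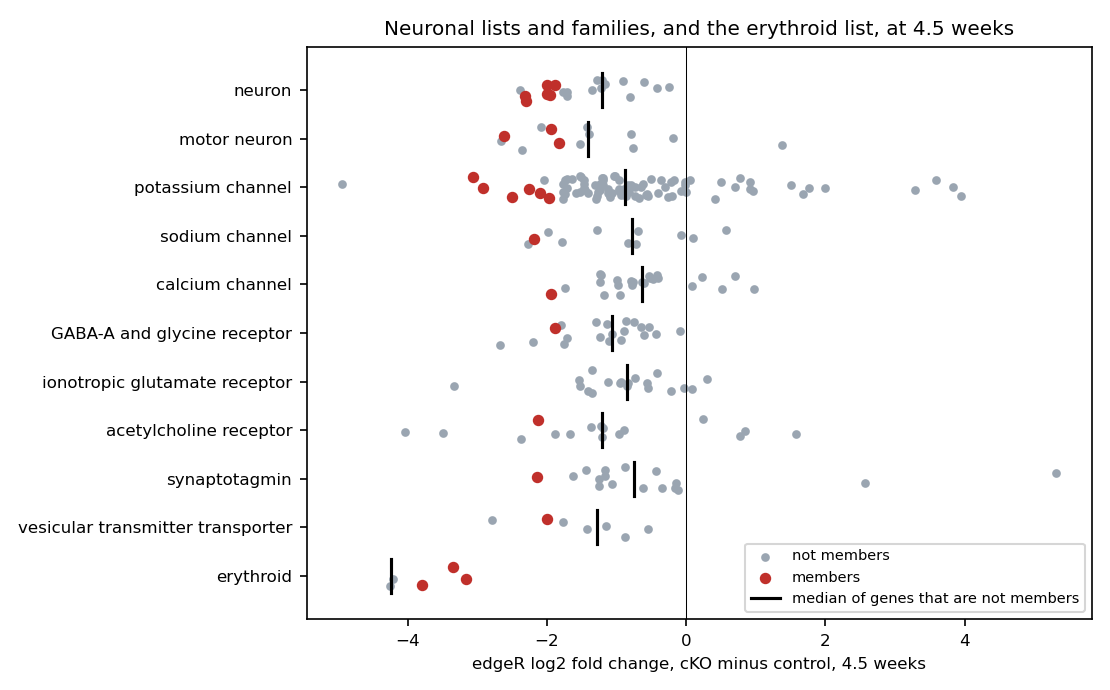
Each point is a tested gene of a list or family, placed by its edgeR log2 fold change at 4.5 weeks (x, cKO minus control), with members in red and other genes in grey, and a black bar at the median of the genes that are not members. In the neuronal groups the members lie toward the low end, where the rule places them, and the grey medians are below 0 too.

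The 134 genes that fell as far but were already below 0.8 at 4 weeks held other listed markers. They included 9 of mature oligodendrocytes, 6 of astrocytes, 11 of cholesterol synthesis, 1 of the neuron list and 1 of the motor neuron list. The 67 members held 6 of the neuron list, 3 of the motor neuron list and 3 of the erythroid list, and 0 of the other 18 lists. The lists differ in size and level, and this difference between the sets was not tested.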

How the data were processed

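Bulk RNA libraries of 12 mouse spinal cords were made with a kit that does not mark strand, so antisense or overlapping genes cannot be told apart. The deposited values are estimated counts by gene, in 1 table a time, without scaling for depth or length (3.25% to 3.81% of values per library were not whole numbers). The submitters' processing notes name STAR, RSEM and mm39, without versions or settings. Of the genes, 6753 had no symbol (0.337% to 0.519% of counts), and 27 symbols turned into dates were restored from their identifiers.

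Members were found on CPM from the deposited counts. For tests, rounded estimated counts entered edgeR 4.0.16 (R 4.3.3): the software's filter on low counts (19278 genes kept), trimmed-mean scaling, 1 model of 4 group means and the quasi-likelihood F test, with Benjamini-Hochberg adjusted p below 0.05 over all genes. Contrasts were cKO minus control at each time and their difference. All 67 members passed the filter. Column-sum CPM put the median gene at ratios of 1.07 at both times, trimmed-mean scaling at 1.00 and 1.01. The fit was tested on simulated counts.

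The members, gene lists and rules were chosen with earlier results of these data known. Roles and symbol families were drawn up after the values were seen. Named genes are the 25 members of lowest ratio, listed members, genes at the edges, and up to 3 genes a list by smallest p. Other named genes were chosen after their values were seen, and the values of 3 members are not reported here. Replicate numbers did not pair control and cKO (correlations of same-numbered libraries -0.165 to 0.057). Promoter windows are of GRCm38.p6, another build than that of the counts, and were matched by symbol only. The labels call the animals of a group independent and give no litter or batch. Alternatives were other scalings, filters, limits and tests, a replicate block, a sex term and libraries left out.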

Additional observations from a re-analysis of the deposited data

Results flagged for a closer look

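In 8 genes outside the members, the named genes of the neuron, motor neuron and erythroid lists, the effect of the cKO label differed between the times by edgeR's test of the difference itself (the 4.5-week minus the 4-week log2 fold change), which called 21.9% of all tested genes downward and 18.7% upward. The neuron and motor neuron genes were named for their smallest p at 4.5 weeks, and that contrast is part of the difference. This choice favours small p-values for the difference in those genes. Over the whole lists, the test of the difference called 12 of 14 neuron, 7 of 10 motor neuron and 2 of 2 erythroid genes downward and 0 upward. Among the other lists it called 21 of 21 cholesterol synthesis genes downward and 12 of 12 activated microglia genes upward. For the neuron markers it was -0.97 for Rbfox3 (adjusted p 6.1e-06), -1.23 for Kcnc1 and -1.39 for Elavl4. For the motor neuron genes it was -2.16 for Chodl (adjusted p 7.0e-06), -1.61 for Slc18a3 and -1.44 for Slc10a4. All 3 later cKO libraries of each gene lay below all 3 later controls. For the erythroid genes it was -3.79 for Hbb-bt and -3.29 for Alas2, both at very low levels in the later cKO libraries. With a sex term Hbb-bt was no longer called (adjusted p 0.0731). The call of Alas2 was lost with a sex term, without 4.5-week controls 1 and 2, and without cKO library 1 or 3 of 4.5 weeks (highest adjusted p 0.169). The listed members are not given here because their difference was used to choose them.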

How the results depend on the processing

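The rule gave 67 members, 31 with a limit of 0.25, 144 with 0.35 and 25 with a 4-week window from 0.9, all by construction nested in or around the 67. Trimmed-mean scaling gave 66, of which 42 were among the 67, and size factors of DESeq2 60, of which 37 were. Without 4.5-week controls 1 and 2 there were 80 (58 of the 67). With the male cKO library as the only one of 4 weeks, a choice made after seeing the data, there were 46 (45 of the 67). Leaving out each library gave 50 to 81 members with 49 to 66 of the 67 kept, and 31 were kept in every such setting. Genes called at 4 weeks numbered 7179, and 4548 with a sex term, which leaves 1 male cKO library to carry the effect. Leaving out each library gave 5476 to 7760 at 4 weeks, 11754 to 13033 at 4.5 weeks (12701 in all), 6979 to 7760 for the difference (7841) and 225 to 258 of the listed genes outside the members (253 of 321). With a replicate block these were 6812, 12450, 7523 and 240 in the order given, and it is reported although the numbers do not pair the libraries. The other settings kept the counts of members and of called genes within 1.5 times. Of the 4.5-week counts of listed and family genes given, some of the higher calls moved further, as stated beside them. Some family counts at 4 weeks and for the difference also moved further, with a sex term among other settings. Members near the minimum of 5 CPM rest on fewer counts and are less precise.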
